A study of Mus musculus with 6 samples.

Results

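The phagocyte NADPH oxidase was described here through 6 of its genes, Cybb, Cyba, Ncf1, Ncf4, Rac1 and Rac2, which were picked by symbol from the 54532 genes of the deposited count table. All 6 were found and all 6 passed the filter on low counts. Gene expression had been measured by RNA sequencing in macrophages grown from mouse bone marrow, all of them treated with MSU (monosodium urate, the crystal of gout), with 3 libraries carrying the Tet2 knockout label and 3 the wild-type label. The product of Tet2 oxidises 5-methylcytosine in DNA, an early step in its removal. The labels give neither the knockout allele, the strain, the age nor the duration of the MSU treatment, and whether the 3 libraries of a label stem from different mice or cultures is not stated, so each p-value reflects only how these libraries scatter, and that scatter could be technical. No untreated macrophages were analysed here, so every comparison is one of genotype labels within MSU-treated cells.

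The NADPH oxidase moves electrons from NADPH across a membrane to oxygen and makes superoxide, which phagocytes use to kill ingested microbes. Its core is a membrane flavocytochrome of gp91phox (Cybb), which carries the electrons, and p22phox (Cyba), which stabilises it and is the docking site of the cytosolic organiser. On activation a cytosolic complex that includes p47phox (Ncf1, the organiser) and p40phox (Ncf4, which binds a phosphoinositide of the phagosome membrane) moves to the membrane together with a GTP-loaded Rac GTPase, Rac1 or Rac2. In people, loss of CYBB, CYBA, NCF1 or NCF4 causes chronic granulomatous disease.

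The 6 genes lay on 3 autosomes and the X chromosome of mm10, the build named in the submitters' processing notes. Cybb (ENSMUSG00000015340) spanned chromosome X, 9435252 to 9487771, minus strand. Cyba (ENSMUSG00000006519) spanned chromosome 8, 122424776 to 122432930, minus strand, and was the shortest of the 6 with 1039 bases of deposited gene length. Ncf1 (ENSMUSG00000015950) and Rac1 (ENSMUSG00000001847) lay on chromosome 5, at 134220053 to 134229625 and 143503634 to 143528036, both on the minus strand. Ncf4 (ENSMUSG00000071715; 78244801 to 78262580, plus strand) and Rac2 (ENSMUSG00000033220; 78559167 to 78572783, minus strand) lay 297 kb apart on chromosome 15. All 6 are protein-coding genes, and the counts cover their exons as annotated.

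The sequences just upstream of the RefSeq start (build GRCm38.p6) are shown for Cybb and Ncf1, which rose with the Tet2 knockout label, and for Cyba, which fell. Each is 250 bases, printed along the gene's strand, and capitals mark matches to GAAANNGAAA, a pattern of interferon response elements. The window is chrX:9469325-9469574 for Cybb, chr5:134229626-134229875 for Ncf1 and chr8:122432941-122433190 for Cyba. The RefSeq start of Cybb lies inside the deposited span of that gene.

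Cybb: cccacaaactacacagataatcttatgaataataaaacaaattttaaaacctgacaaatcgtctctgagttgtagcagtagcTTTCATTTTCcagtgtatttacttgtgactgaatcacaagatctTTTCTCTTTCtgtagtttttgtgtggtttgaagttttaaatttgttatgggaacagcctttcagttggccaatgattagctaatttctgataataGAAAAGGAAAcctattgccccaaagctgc

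Ncf1: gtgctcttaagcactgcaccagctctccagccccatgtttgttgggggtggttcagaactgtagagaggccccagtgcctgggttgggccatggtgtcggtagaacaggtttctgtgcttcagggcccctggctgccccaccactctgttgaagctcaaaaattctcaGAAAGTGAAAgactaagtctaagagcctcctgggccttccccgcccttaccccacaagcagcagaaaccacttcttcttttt

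Cyba: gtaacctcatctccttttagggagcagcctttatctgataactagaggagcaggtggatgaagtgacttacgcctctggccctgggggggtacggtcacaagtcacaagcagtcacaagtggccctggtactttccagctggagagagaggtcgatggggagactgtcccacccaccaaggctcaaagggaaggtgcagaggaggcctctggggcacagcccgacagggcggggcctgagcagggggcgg

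The Cybb window held 3 matches, which begin 168, 124 and 29 bases before the start, the first 2 of them on the reverse strand. The Ncf1 window held 1 match, 82 bases before the start, and the Cyba window held none. The pattern occurred on either strand in 2.98% of 32851 RefSeq promoter windows of the same length. A second pattern, GAGGAA, 1 variant of the core of sites of the macrophage factor PU.1, was in none of the 3 windows and in 23.3% of all windows. Other variants were not searched, so the windows may still hold PU.1 sites. These matches are letters in a window and were not tested for binding or for a link to the direction of change.

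Library totals ran from 11997104 to 14481843 counts, and the 6 genes drew between 1980 and 22968 counts in a library, which corresponds to a counting error of 0.66% to 2.25% (counting error only, since molecules were not tagged). Levels are given as CPM, counts divided by the library total and set to a common scale, after TMM scaling between libraries. Tet2, read as a check of the labels, stood at 33.7 ± 0.80 CPM under the Tet2 knockout label and at 29.3 ± 1.41 CPM under the wild-type label (SD, n = 3 each), so the target gene was called higher and not lower (log2 change 0.20, edgeR adjusted p = 0.0159, no overlap), and directions are those of the labels. A count over all exons cannot show a partial deletion. Wild-type replicate 2 had the lowest total and was the least like the others of its group. Xist had 0 counts in all 6 libraries and the Y-linked gene Ddx3y 84.9 ± 4.51 CPM under the Tet2 knockout label and 81.8 ± 4.09 CPM under the wild-type label, so the X-linked Cybb was compared between libraries that are alike in these markers.

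Macrophage markers were high, among them Lyz2, Csf1r and Adgre1, and the 10 of them summed to 6874 to 7146 CPM in the libraries labelled Tet2 knockout and 6719 to 7127 CPM in those labelled wild-type. They did not move as 1 group, with 4 higher and 4 lower. The markers of neutrophils, the other cells rich in this oxidase, were near 0. All 11 summed to 5.22 to 6.18 CPM in the libraries labelled Tet2 knockout and 4.21 to 5.61 CPM in those labelled wild-type, with Ly6g and Retnlg at 0 counts throughout and log2 changes of -0.14 for S100a8 and 0.04 for Mmp8, the 2 that were tested. Fibroblast markers, led by Col1a1 and Col1a2, summed to 5517 to 5682 CPM in the libraries labelled Tet2 knockout, against 5860 to 6288 CPM in those labelled wild-type, and 4 of 5 were lower. Markers of monocytes, dendritic cells, B cells, and mast cells, basophils and eosinophils summed to less than those of fibroblasts in every library, at most 8.83 CPM per list. The 7 dendritic cell markers summed to 5.40 to 6.68 CPM under the Tet2 knockout label and 3.27 to 4.82 CPM under the wild-type label, with Cd209a and Siglech at 0. Of the 2 that were tested, Xcr1 was called higher at 3.596 ± 0.56 CPM under the Tet2 knockout label and 1.71 ± 0.65 CPM under the wild-type label (log2 change 1.06; edgeR adjusted p = 0.000177). The other, Zbtb46, was not called (log2 change 0.09; edgeR adjusted p = 0.805). The T and NK cell list summed to 11.05 to 12.6 CPM in the libraries labelled Tet2 knockout and 3.22 to 3.96 CPM in those labelled wild-type, nearly all of it Cd4 (11.8 ± 0.69 CPM under the Tet2 knockout label and 3.48 ± 0.35 CPM under the wild-type label), with Cd3d at 0. The mitochondrial share of counts was 0.349% to 0.366% under the Tet2 knockout label and 0.240% to 0.275% under the wild-type label, without overlap. The part of the fibroblast, dendritic cell, Cd4 and mitochondrial values in the results on the oxidase was not tested. In bulk RNA, fewer cells of a type and less RNA per cell cannot be told apart.

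All 6 oxidase genes passed an edgeR adjusted p of 0.05, and they split: Ncf1, Rac2, Cybb and Ncf4 rose with the Tet2 knockout label and Cyba and Rac1 fell. This count has to be read against a high background, since 40.9% of the 13175 genes tested were called, 21.6% higher and 19.2% lower. Among the 1297 genes at least as abundant as the lowest of the 6 (mean 162 CPM), 70.4% were called, 46.8% higher and 23.6% lower. By absolute log2 change Ncf1 stood above 96.0% of all tested genes, Cyba above 85.3% and Rac2 above 81.5%, while Cybb (51.3%), Rac1 (48.0%) and Ncf4 (31.8%) lay near or below the middle. The median log2 change of the 6 was 0.14, beside -0.003 over all genes tested and 0.05 over the 1297 abundant ones. Together the 6 genes took 0.307% to 0.310% of all counts in the libraries labelled Tet2 knockout and 0.301% in each of those labelled wild-type. After TMM scaling they summed to 3121 to 3148 CPM under the Tet2 knockout label and 2969 to 2976 CPM under the wild-type label. These sums did not overlap, but moved less than Ncf1, Cyba or Rac2 alone. Cybb, the most counted of the 6, weighs most in them.

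**Figure D1:**
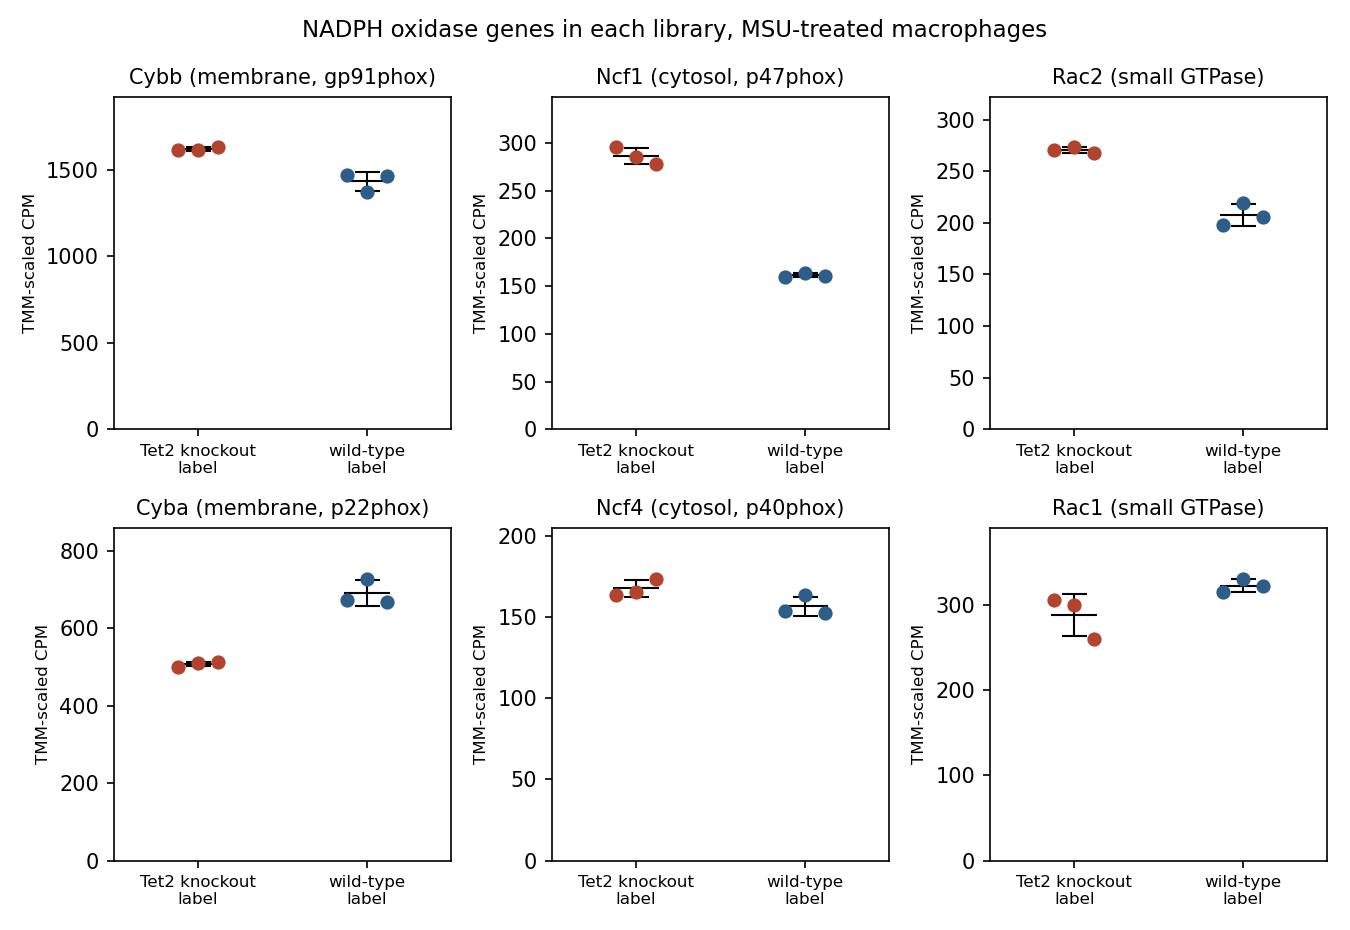
TMM-scaled CPM (y axis, from 0) of the 6 oxidase genes, 1 panel a gene, with membrane subunits, cytosolic subunits and GTPases in columns from left to right. Points are libraries, bars are the mean and SD of 3. Ncf1 stood at 278 to 296 CPM in the libraries labelled Tet2 knockout and 160 to 164 CPM in those labelled wild-type, and 1 library labelled Tet2 knockout lay low for Rac1 (260.1 CPM).

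The membrane subunits moved in opposite directions. Cybb, the electron-carrying subunit and the most counted of the 6, had 1612, 1615 and 1629 CPM in the libraries labelled Tet2 knockout, against 1469, 1371 and 1462 CPM in those labelled wild-type. The groups did not overlap, as was true of 47.8% of all genes tested, and wild-type replicate 2 was the lowest of the 6 libraries. The log2 change was 0.17 (SE 0.02; edgeR adjusted p = 1.60e-10), or 1.13-fold. Without wild-type replicate 2 it was 0.14 and still called.

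Cyba had 501, 510 and 512 CPM in the libraries labelled Tet2 knockout, against 674, 729 and 669 CPM in those labelled wild-type. The 3 libraries labelled Tet2 knockout lay close together and well below the others, and wild-type replicate 2 was the highest. The log2 change was -0.44 (SE 0.03; edgeR adjusted p = 2.67e-29), a level 0.735 times that of the libraries labelled wild-type. Cyba also had the highest GC content of the 6, 59.3% of its longest GENCODE M21 transcript, and the shortest such transcript, 744 bases. With the trends of all genes with GC content and length removed its log2 change was -0.42 and was called. The upstream window of Cyba shown above held no interferon pattern, which is the common case, as 2.98% of all windows held it. A link between the pattern and the direction of change was not tested.

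Wild-type replicate 2 was thus lowest for Cybb and highest for Cyba. The ratio of Cybb to Cyba counts within a library was 3.22, 3.17 and 3.18 in the libraries labelled Tet2 knockout, against 2.18, 1.88 and 2.19 in those labelled wild-type. These groups did not overlap, and the ratio does not depend on the scaling between libraries. Its mean was 1.54-fold higher in the libraries labelled Tet2 knockout (log2 difference 0.62; SD of the log2 ratio 0.01 under the Tet2 knockout label and 0.12 under the wild-type label, n = 3 each).

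Among the cytosolic subunits Ncf1 showed the widest change of the 6 genes. Ncf1, the organiser whose phosphorylation opens the complex, had 296, 285 and 278 CPM in the libraries labelled Tet2 knockout, against 159.6, 164 and 161 CPM in those labelled wild-type. The lowest library labelled Tet2 knockout exceeded the highest labelled wild-type by far more than the spread in either group. The log2 change was 0.83 (SE 0.03; edgeR adjusted p = 1.75e-44), or 1.77-fold. It stayed between 0.80 and 0.85 and was called under all 16 alternatives tried. The gene Gtf2ird2 overlaps Ncf1 on the opposite strand, and 7.45% of the 50-base words of Ncf1 transcripts also occur in transcripts of other genes. Gtf2ird2 had 157, 115 and 139 counts in the libraries labelled Tet2 knockout and 110, 121 and 104 counts in the wild-type ones. Ncf1 had 1986 to 4212 counts. The part of this overlap in the Ncf1 values was not tested.

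Ncf4, the phosphoinositide-binding subunit, had 163.6, 165 and 174 CPM in the libraries labelled Tet2 knockout, against 154, 163.4 and 152 CPM in those labelled wild-type. The groups did not overlap, but knockout replicate 1 and wild-type replicate 2 almost touched. The log2 change was 0.10 (SE 0.04; 95% interval 0.03 to 0.17; edgeR adjusted p = 0.0178). The call was lost without knockout replicate 3 (0.151), wild-type replicate 1 (0.0940) or wild-type replicate 3 (0.127), with upper-quartile scaling (0.0654) and with DESeq2 (0.0829).

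The 2 cytosolic subunits differed in the size of their change. The ratio of Ncf1 to Ncf4 counts was 1.81, 1.72 and 1.60 in the libraries labelled Tet2 knockout, against 1.04, 1.003 and 1.06 in those labelled wild-type. The organiser was thus higher relative to Ncf4 in the libraries labelled Tet2 knockout, with no overlap.

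Set against each other, the cytosolic pair gained on the membrane pair. Summed Ncf1 and Ncf4 over summed Cybb and Cyba came to 0.217, 0.212 and 0.211 in the libraries labelled Tet2 knockout, against 0.146, 0.156 and 0.147 in those labelled wild-type. The groups did not overlap, and the mean ratio was 1.43-fold higher in the libraries labelled Tet2 knockout (log2 difference 0.51; SD of the log2 ratio 0.02 under the Tet2 knockout label and 0.05 under the wild-type label, n = 3 each). No p is given for this ratio, since its genes were chosen with results known. Taking single pairs, the ratio of Ncf1 to Cyba was 0.590, 0.560 and 0.543 in the libraries labelled Tet2 knockout, against 0.237, 0.225 and 0.241 in those labelled wild-type, or 2.41-fold higher. The ratio of Ncf4 to Cybb was 0.101, 0.102 and 0.107 in the libraries labelled Tet2 knockout, against 0.105, 0.119 and 0.104 in those labelled wild-type, and these overlapped. Summed, Cybb and Cyba came to 2126 ± 14.6 CPM under the Tet2 knockout label and 2124 ± 22.7 CPM under the wild-type label, a difference within the spread, while Ncf1 and Ncf4 came to 454 ± 4.605 CPM under the Tet2 knockout label and 318 ± 8.08 CPM under the wild-type label (SD, n = 3 each). In CPM without length correction, the higher ratio of the pairs thus lay in the cytosolic sum, and mostly in Ncf1. This placement depends on the weighting, since Cybb outweighs Cyba in CPM. Per kilobase of gene length Cyba outweighs Cybb, at 488 CPM under the Tet2 knockout label and 665 CPM under the wild-type label. Cybb then stood at 279 CPM under the Tet2 knockout label and 247 CPM under the wild-type label.

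**Figure D2:**
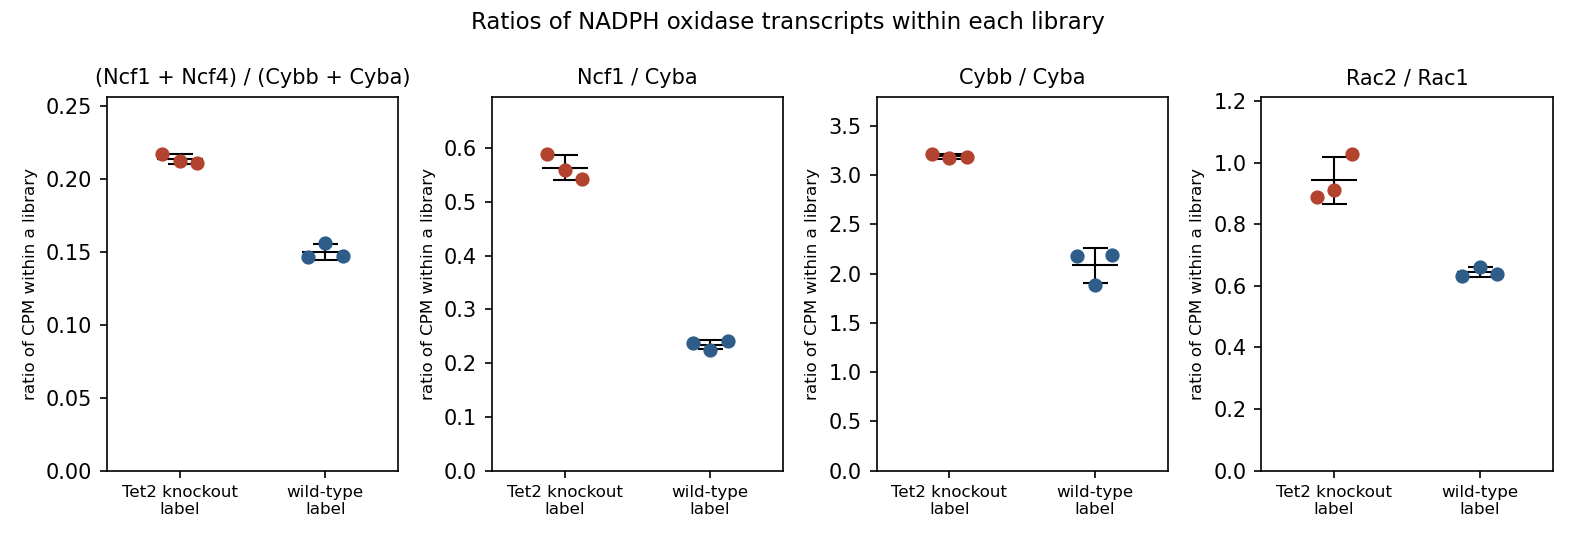
Ratio of CPM within each library (y axes, from 0) for the cytosolic over the membrane pair, Ncf1 over Cyba, Cybb over Cyba and Rac2 over Rac1. Points are libraries, bars are the mean and SD of 3, and in all 4 panels the libraries labelled Tet2 knockout lie above those labelled wild-type without overlap.

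The Rac GTPases, which carry the activating GTP signal to the complex, also moved apart. Rac2, the form largely confined to blood cells, had 271, 273 and 268 CPM in the libraries labelled Tet2 knockout, against 198, 219 and 206 CPM in those labelled wild-type. The groups did not overlap. The log2 change was 0.38 (SE 0.03; edgeR adjusted p = 4.21e-20), or 1.30-fold.

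Rac1, the form found in nearly all cells, had 305, 299 and 260.1 CPM in the libraries labelled Tet2 knockout, against 314, 331 and 322 CPM in those labelled wild-type. Knockout replicate 3 lay well below the rest, and the other 2 lay just under the lowest library labelled wild-type. The log2 change was -0.16 (SE 0.05; 95% interval -0.28 to -0.04; edgeR adjusted p = 0.0339), and without knockout replicate 3 it was -0.09 (edgeR adjusted p = 0.0241). The call was lost without wild-type replicate 1 (0.0532), 2 (0.297) or 3 (0.104), with DESeq2 (0.0675) and with GC and length trends removed (0.0515). Rac1 overlaps Daglb on the opposite strand, and 50.3% of the 50-base words of its transcripts also occur in Daglb transcripts, so reads from that stretch cannot be assigned by a count without strand. Daglb had 503, 457 and 508 counts in the libraries labelled Tet2 knockout and 456, 422 and 469 counts in the wild-type ones.

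The ratio of Rac2 to Rac1 counts was 0.888, 0.912 and 1.03 in the libraries labelled Tet2 knockout, against 0.631, 0.662 and 0.640 in those labelled wild-type. These groups did not overlap, and the mean was 1.46-fold higher in the libraries labelled Tet2 knockout. Rac3, the remaining Rac gene and little expressed here, stood at 8.87 ± 0.54 CPM under the Tet2 knockout label and 5.54 ± 1.09 CPM under the wild-type label (SD, n = 3 each; log2 change 0.69, edgeR adjusted p = 3.88e-05).

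**Figure D3:**
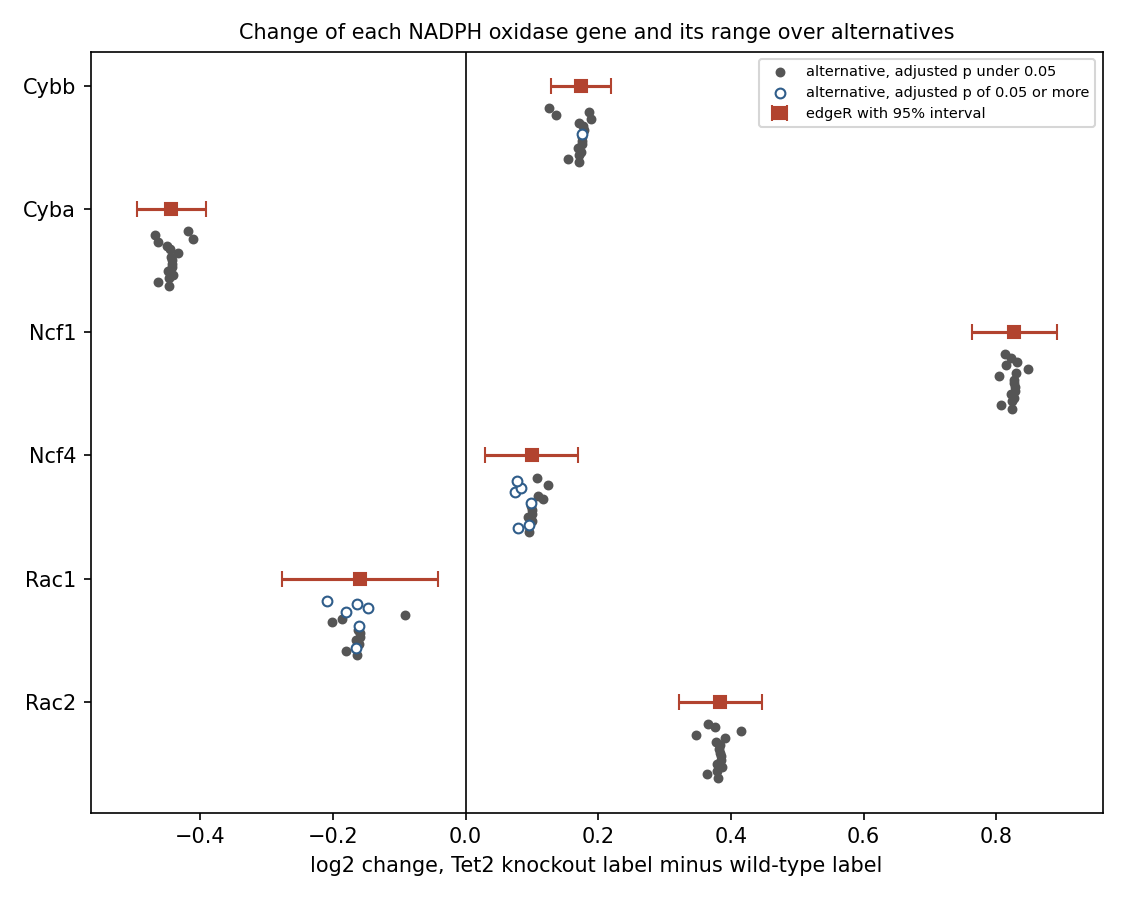
Log2 change of each oxidase gene (x axis, libraries labelled Tet2 knockout minus those labelled wild-type). Squares with bars are the edgeR value and its 95% interval, and points below them are the 16 alternatives, filled where the adjusted p was under 0.05. Open points occur for Cybb, Ncf4 and Rac1, and no gene crossed 0 under any alternative.

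With a biological spread of 0.1 assumed in place of the very small one estimated (2.63%), Ncf1 (edgeR adjusted p = 6.83e-10), Cyba (0.00273) and Rac2 (0.0144) were called and Cybb (0.366), Ncf4 (0.668) and Rac1 (0.424) were not. Under that setting 14.3% of all tested genes and 18.7% of the 1297 abundant ones were called. The 3 genes that held were those with the largest changes of the 6.

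Compared per kilobase of deposited gene length, the membrane subunits led. In the libraries labelled Tet2 knockout the order was Cyba (488 ± 5.85 CPM per kilobase), Cybb (279 ± 1.58), Rac2 (87.2 ± 0.85), Ncf4 (82.9 ± 2.64), Ncf1 (78.2 ± 2.40) and Rac1 (64.1 ± 5.45). In those labelled wild-type it was Cyba (665 ± 31.9), Cybb (247 ± 9.48), Ncf4 (77.5 ± 3.0), Rac1 (71.7 ± 1.80), Rac2 (66.9 ± 3.36) and Ncf1 (44.1 ± 0.60) (SD, n = 3 each). Ncf4 and Ncf1 in the first order and Rac1 and Rac2 in the second differed by less than their summed SDs, and the other neighbours by more. Rac2 thus stood at place 3 under the Tet2 knockout label and at place 5 under the wild-type label, and Rac1 at place 6 under the Tet2 knockout label and place 4 under the wild-type label. Cyba lay above 99.6% of tested genes in the libraries labelled Tet2 knockout and above 99.8% in those labelled wild-type, and Ncf1 above 95.4% under the Tet2 knockout label and 91.4% under the wild-type label. These levels depend on the deposited lengths, and the part of the Daglb overlap in the level of Rac1 was not tested.

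**Figure D4:**
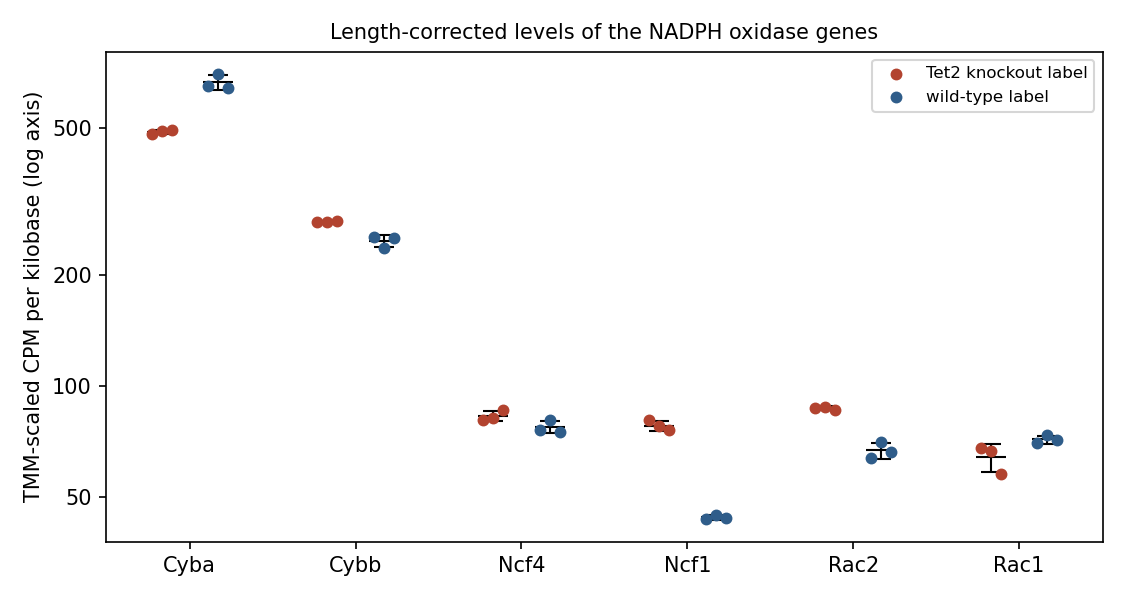
TMM-scaled CPM per kilobase of deposited gene length (log axis) of the 6 oxidase genes, libraries labelled Tet2 knockout left of those labelled wild-type. Points are libraries, bars are the mean and SD of 3. Cyba and Cybb lie above the other 4 genes in every library, and the largest gap between groups is that of Ncf1.

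The genes whose log2 CPM followed each of the 6 most closely over the 6 libraries, given as a description, were as follows. Ccl9, Slc25a10 and Selenop followed Ncf1, with Pearson r from 0.9995 to 0.9998. Myo1g, Arl6ip1 and Gmpr followed Rac2, with r from 0.998 to 0.9992. For Cybb they were Usp9x, Setd7 and Wnk1 (r from 0.9976 to 0.9989) and for Cyba Tnfaip2, Psap and Anp32b (r from 0.9983 to 0.9986). For Ncf4 they were Prelid1, Ccni and Fbxw8 (r from 0.9884 to 0.9937), and for Rac1 Gnas, Marcks and Zfp661 (r from 0.9927 to 0.9972). With 6 libraries in 2 groups and 13175 tested genes such values arise readily, and the libraries share their depth and group.

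The other genes of the oxidase pathway were read from 6 fixed lists. Of 75 tested list entries 39 were higher, 9 lower and 27 were not called, so 64.0% were called, beside the 40.9% of all genes. By direction 21.6% of all genes tested were higher and 19.2% lower. Of genes as abundant as the oxidase genes 70.4% were called, 46.8% higher and 23.6% lower. The lists also hold far less abundant genes, so these shares are not a matched background for them. The counts of higher and lower genes in each list below have to be read beside both sets of shares.

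Of the other subunits and isoforms 13 were in the table and 6 were tested (median log2 change 0.15). Of these 3 were higher, 1 was lower and 2 were not called. The lower gene is not reported here by name. Cybc1, the chaperone that the flavocytochrome needs to mature, stood at 95.4 ± 2.66 CPM in the libraries labelled Tet2 knockout and 75.0 ± 4.62 CPM in those labelled wild-type (log2 change 0.35, SE 0.05; edgeR adjusted p = 1.51e-10). Cybc1 moved with Cybb and against Cyba, and its protein is needed for the abundance of both membrane subunits. The catalytic isoform Nox1 was called higher at 1.07 ± 0.26 CPM under the Tet2 knockout label and 0.45 ± 0.22 CPM under the wild-type label, and Rac3 was higher as above. Rap1a and Nox4 were not called. Noxa1 and Duoxa2 had 0 counts throughout, and Nox3, Duox1, Duox2, Duoxa1 and Noxo1 were below the filter. This list fell to 2 calls without knockout replicate 3 and with DESeq2.

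Rac exchange factors, which load Rac with GTP, were mostly higher, with 9 of 15 tested higher and 1 lower (median log2 change 0.19). Arhgef7 rose by 0.70 on the log2 scale (edgeR adjusted p = 3.20e-34), Arhgef6 by 0.82, Dock2, the main Rac activator of leukocytes, by 0.53, and Prex1, which responds to G protein subunits and phosphoinositides, by 0.48. Tiam2, at 3.05 ± 0.18 CPM under the Tet2 knockout label and 4.38 ± 0.91 CPM under the wild-type label, was the 1 that fell. Rac inhibitors were higher as well, in 6 of 9 with 1 lower (median 0.25). Arhgdib, the GDP dissociation inhibitor of blood cells that holds Rac in the cytosol, stood at 265 ± 1.96 CPM under the Tet2 knockout label and 169.6 ± 5.44 CPM under the wild-type label (log2 change 0.64, SE 0.03; edgeR adjusted p = 2.43e-35). The GTPase-activating genes Abr and Srgap2 rose by 0.25 and 0.28, whereas Arhgap25 fell by 0.26 on the log2 scale. At the larger spread of 0.1 the calls came to 6 exchange factors and 2 inhibitors.

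Among kinases and lipid kinases that act on the oxidase or upstream of it, 12 of 23 tested were higher and 1 lower (median log2 change 0.14). Prkcb, a protein kinase C that phosphorylates p47phox, stood at 26.3 ± 2.48 CPM under the Tet2 knockout label and 12.01 ± 0.80 CPM under the wild-type label (log2 change 1.13, SE 0.09; edgeR adjusted p = 2.72e-20), and Prkcd, another, at 326 ± 3.76 CPM under the Tet2 knockout label and 256 ± 8.24 CPM under the wild-type label (0.35). Pik3cd, a phosphoinositide 3-kinase of leukocytes, rose by 0.67 and Syk, the kinase of phagocytic receptors, by 0.27. The Src-family kinase gene Fgr, at 1.14 ± 0.38 CPM under the Tet2 knockout label and 2.50 ± 1.003 CPM under the wild-type label, was the 1 that fell. Akt1, Mapk3 and Pak2 were among the 10 that were not called, with log2 changes of -0.06, -0.07 and -0.07.

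NADPH supply and superoxide-handling genes were called in 8 of 9, 6 higher and 2 lower (median log2 change 0.14). G6pdx, which makes NADPH in the pentose phosphate pathway, stood at 175 ± 1.36 CPM under the Tet2 knockout label and 129 ± 5.31 CPM under the wild-type label (log2 change 0.44, SE 0.04; edgeR adjusted p = 6.98e-20), and Idh1, another source of NADPH, rose by 0.42. The superoxide dismutase gene Sod2 rose by 0.19 and the catalase gene Cat by 0.26, while Me1 (-0.27) and the secreted dismutase gene Sod3 (-0.14) fell. Hvcn1, the proton channel that balances the charge moved by the oxidase, stood at 79.1 ± 3.0 CPM under the Tet2 knockout label and 78.1 ± 1.45 CPM under the wild-type label and was the 1 not called. The list fell to 5 calls without wild-type replicate 1 and to 2 with the assumed spread of 0.1.

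Transcription factors known to act at oxidase genes were called in both directions, with 3 of 13 higher and 3 lower (median log2 change -0.05), but at the assumed spread of 0.1 the calls were 0 higher and 4 lower. Irf1 and Irf8, of the interferon pathway, rose by 0.20 and 0.17 on the log2 scale (edgeR adjusted p = 1.44e-05 for Irf1). Cebpa fell by 0.59, Rela by 0.47 and Hoxa10 by 0.56 on the log2 scale (edgeR adjusted p = 1.66e-34, 2.48e-23 and 0.0165). Hoxa10 was little expressed, at 3.14 ± 0.74 CPM under the Tet2 knockout label and 4.61 ± 0.51 CPM under the wild-type label. Spi1, which encodes PU.1, stood at 368 ± 2.58 CPM under the Tet2 knockout label and 354 ± 8.93 CPM under the wild-type label and was not called (log2 change 0.06; edgeR adjusted p = 0.0994).

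**Figure D5:**
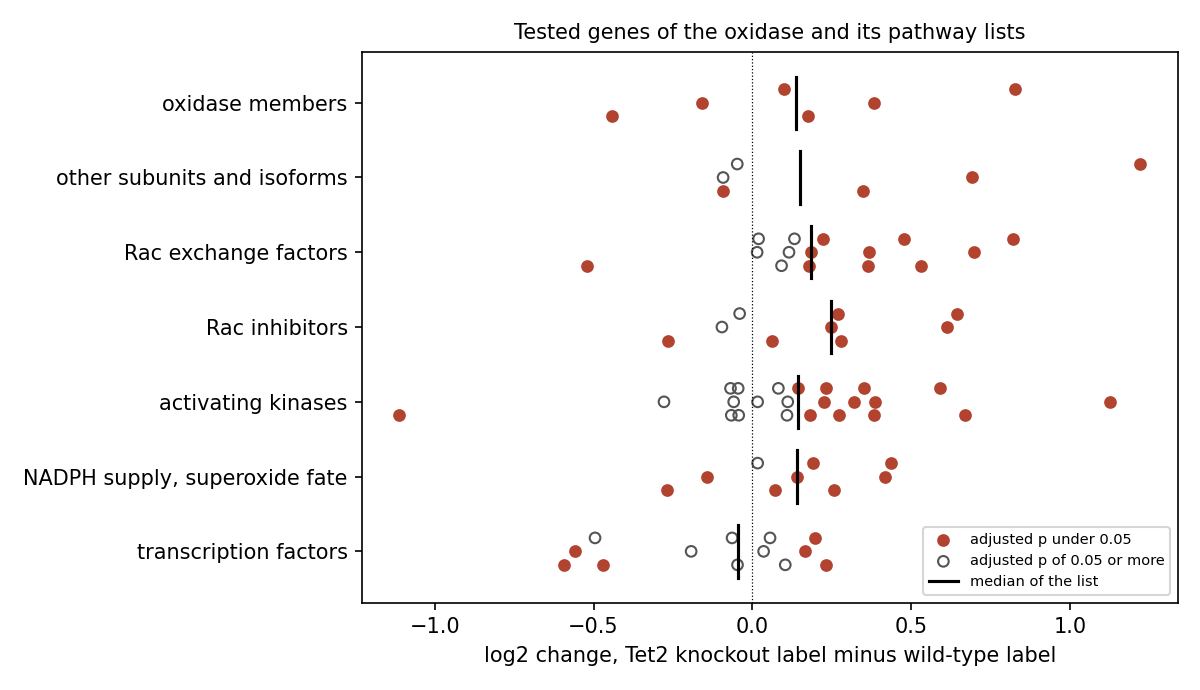
Log2 change (x axis, libraries labelled Tet2 knockout minus those labelled wild-type) of every tested gene of the oxidase and of 6 pathway lists. Filled points passed an edgeR adjusted p of 0.05, open points did not, and black lines are list medians. The 6 oxidase genes spread from Cyba at -0.44 to Ncf1 at 0.83, and the medians of the other lists lie between -0.05 and 0.25.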

How the data were processed

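Counts per gene were deposited by the authors as whole numbers, not normalised, with the authors' gene lengths in bases; fastp, STAR, featureCounts and mm10 are named per the submitters' processing notes, without versions, and whether strand was used in counting is not stated. The 6 count columns were matched to samples by name and grouped by genotype label. In R 4.3.3 with edgeR 4.0.16, filterByExpr (minimum count 10) kept 13175 of 54532 genes, counts were scaled by TMM, and the genotype labels were compared by edgeR's quasi-likelihood test (robust), Benjamini-Hochberg adjusted over all genes tested (threshold 0.05, prior count 0.125). Alternatives used DESeq2 1.42.0, limma 3.58.1 (voom), other scalings and filters, a replicate block, an assumed spread of 0.1 (edgeR likelihood ratio test) and leaving out each library. SE is the absolute log2 change divided by the square root of F. With 3 libraries a label the smallest exact permutation p is 0.1, so none was used. Within a label, pairs of libraries differed 1.56 to 2.33 times as much as counting noise allows, so none was the same library counted again; repeat preparations of 1 RNA or culture cannot be told apart from separate ones.

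The members and lists were chosen with earlier results of these data known. Named besides the 6 genes are Tet2, up to 4 called genes of each list with the smallest p (and any set of 5 or fewer, after their values were seen) and the 3 protein-coding genes most correlated with each member. Some list genes are counted but not reported here by name. Promoter windows were found for 3 of the 6 genes. Transcript words were 50 bases from GENCODE M21. Figures used Python 3.11.15 and matplotlib 3.10.9.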

Additional observations from a re-analysis of the deposited data

How the results depend on the processing

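The directions of all 6 oxidase genes held under all 16 alternatives, and Cyba, Ncf1 and Rac2 were called under each. With the assumed spread of 0.1 the calls came to 1885 over all genes and to 3 of the 6 oxidase genes, the log2 changes of Cybb, Ncf4 and Rac1 (0.17, 0.10 and -0.16) lost their calls, and the lists held 6 Rac exchange factors, 2 Rac inhibitors, 7 kinases, 2 NADPH and superoxide genes and 4 transcription factors, of which 0 were higher. The Ncf4 change was also not called with upper-quartile scaling (0.0794) and DESeq2 (0.10), and that of Rac1 not with DESeq2 (-0.16) and with GC and length trends removed (-0.21), an alternative chosen after seeing the data. DESeq2 called 2 other subunits. The causes were not tested.

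Leaving out 1 library at a time gave 4725 to 5177 calls over all genes, 4 to 6 of the oxidase genes, log2 changes of 0.0743 to 0.124 for Ncf4 and -0.202 to -0.0913 for Rac1, 2 to 4 other subunits and 5 to 8 NADPH and superoxide genes. The log2 ratio of cytosolic to membrane subunits lay between 0.50 and 0.54 there and was 0.60 as a mean of log2 values. Without length correction 1 of the 6 genes kept its place in the order of levels. With the replicate number as a block (replicate block) 5259 genes and all 6 oxidase genes were called. Whether the replicate numbers pair libraries of the 2 labels is not stated. Deviations of same-numbered libraries over all tested genes correlated with r of 0.004, -0.006 and -0.02. Counting noise enters these values, so they cannot settle whether the libraries were paired. Low counts limit the precision for Xcr1, Nox1, Fgr, Nox4, Tiam2 and Hoxa10.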
